A study of Homo sapiens with 12 samples.

Results

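The upstream Hippo kinases and scaffolds are 10 genes, chosen by name: MOB1A, LATS1, STK3, STK4, SAV1, NF2, MAP4K4, TAOK2, WWC1 and AMOT. The choice was made with earlier results of these data known, which limits what the share of members called can show. All 10 were measured, by 25 probe sets of the 22215 tested, and every probe set that the array annotation gives to one of these genes alone was kept. NF2 had 7 probe sets, MOB1A 4, TAOK2 3, STK3, STK4, MAP4K4 and WWC1 2 each, and LATS1, SAV1 and AMOT 1 each. RCC4, an established line from a human clear cell kidney carcinoma without functional VHL, was studied on 12 Affymetrix arrays. Cells were transfected for 2 days with an siRNA against YAP (siYAP) or with a non-targeting siRNA (siNT), and then held for 7 hours in 1 µM erastin or in DMSO, its vehicle. The 4 groups were siYAP with erastin, siYAP with DMSO, siNT with erastin and siNT with DMSO, with 3 arrays each, which the design text calls biological triplicates. How separately the triplicates were cultured is not stated, so the tests speak for the spread of these arrays alone. All groups carried an siRNA, and every value comes from this single line.

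The Hippo pathway is a kinase relay that restrains YAP and its paralogue TAZ. STK3 and STK4 (also called MST2 and MST1), held by the scaffold SAV1, phosphorylate the LATS kinases and their adaptor MOB1, and the kinases MAP4K4 and TAOK2 can feed into the same step. NF2 (merlin), WWC1 (KIBRA) and AMOT (angiomotin) bring the kinases to membranes and junctions. Active LATS kinases phosphorylate YAP, which is then kept out of the nucleus. In the kidney, loss of NF2 is known from a subset of renal carcinomas. Several inhibitors of the pathway's output, among them LATS2, NF2 and AMOTL2, are known as targets of YAP in other cells, so the pathway can feed back on itself.

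Values are log2 levels, so a difference of 1 is a 2-fold change. Differences were tested with limma over all 22215 probe sets, with Benjamini-Hochberg adjustment, and are called here when the adjusted p was under 0.05. All adjusted p-values below are from this fit unless an alternative is named. YAP1 stood at 4.68, 6.21 and 4.90 on the siYAP arrays with erastin and at 4.18, 4.88 and 4.81 on those with DMSO. It stood at 8.47, 8.52 and 8.65 on the siNT arrays with erastin and at 8.55, 8.59 and 8.47 on those with DMSO, so the siYAP and siNT arrays did not overlap. The second siYAP array with erastin kept the most YAP1 signal of the 6 siYAP arrays. Array medians lay between 6.48 and 6.52, arrays of a group correlated at 0.9956 to 0.9986, and the number of arrays limits the precision. Of 14 measured markers of kidney tubule or clear cell carcinoma, 12 lay above the median probe set (PAX8 at 10.51, VIM at 13.50), and CDH1 lay at 3.24. No endothelial marker of 10 did, nor did any of 8 immune markers but CD74 (9.58), while 3 of 10 fibroblast or pericyte markers did (ACTA2, COL1A1 and RGS5). The summed fibroblast list was 9.38 to 9.60 over the 6 siYAP arrays and 9.22 to 9.34 over the 6 siNT arrays on the log2 scale. The summed immune list was 9.96 to 10.13 over the siYAP arrays and 9.55 to 9.80 over the siNT arrays. Sums were taken before the log, so CD74 outweighs the rest of the immune list, whose median was 4.62. The summed kidney list was also higher, at 15.38 to 15.43 over the siYAP arrays and 15.31 to 15.37 over the siNT arrays. The summed endothelial list overlapped (7.96 to 8.05 and 7.93 to 8.22). The part of the shifts in these sums in the silencing results was not tested.

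After YAP silencing, MOB1A fell on 3 of its 4 probe sets, WWC1 fell slightly on both of its own, part of the NF2 probe sets rose slightly, and the core kinase probe sets other than one of STK4 did not pass the test. In DMSO, 9 of the 25 probe sets were called, 3 higher and 6 lower, which is 36% against 27.4% of all probe sets (14.4% higher and 12.9% lower). Under erastin, 8 were called, 3 higher and 5 lower, which is 32% against 28.9% of all probe sets (16% higher and 12.9% lower). A total of 6 probe sets, of MOB1A, NF2 and WWC1, were called in both, all in the same direction in both. These shares count genes with several probe sets more than once. When only the brightest probe set per gene was fitted, 2 of 10 member genes were called in DMSO and 4 under erastin. Over all 11963 genes that fit called 4030 and 4173. Arrays of the groups did not overlap for 12 probe sets in DMSO (40.8% of all probe sets) and 11 under erastin (40.1%). The median change of the 25 probe sets was -0.02 in DMSO and -0.03 under erastin, against 0.02 and 0.00 over all probe sets. The median size of the change was 0.13 and 0.17, against 0.12 and 0.13. These are bulk RNA samples, so fewer cells of a kind and less RNA per cell cannot be told apart. Of the 25 member probe sets, only 2, both of MOB1A, were called with a change of at least 2-fold, in each medium. Over all 22215 probe sets this held for 495 in DMSO and for 495 under erastin.

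**Figure D1:**
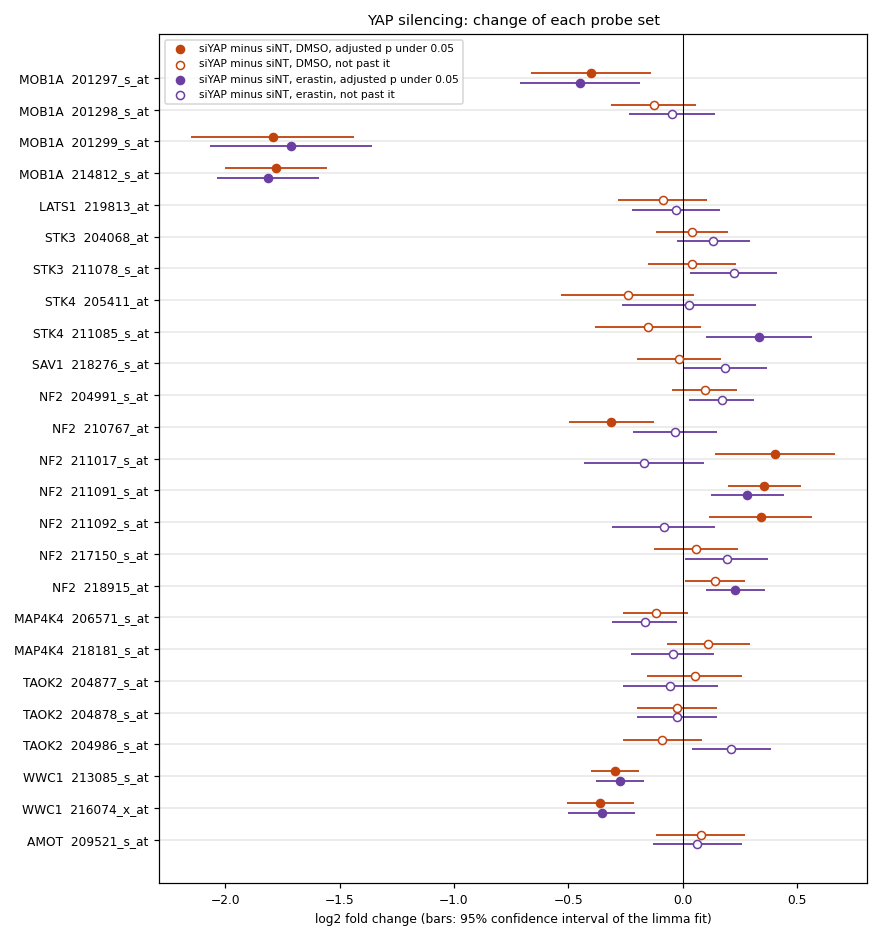
Change of each of the 25 probe sets after YAP silencing (x axis, log2 fold change, siYAP minus siNT), in DMSO and under erastin, with 95% confidence intervals of the limma fit. Filled points passed an adjusted p of 0.05. MOB1A probe sets 201299_s_at and 214812_s_at lie between -1.71 and -1.81, and all other points lie between -0.45 and 0.40.

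MOB1A encodes the adaptor that binds and activates the LATS kinases. Its probe set 214812_s_at read 8.04, 7.99 and 8.21 on siYAP arrays with DMSO, against 9.91, 9.91 and 9.75 on siNT arrays with DMSO. Under erastin it read 7.84, 8.29 and 7.94 on siYAP arrays, against 9.82, 9.87 and 9.81 on siNT arrays. Every siYAP array lay more than 1 log2 unit below every siNT array. The log2 difference was -1.78 in DMSO (3.43-fold lower, SE 0.103, adjusted p = 1.19e-07) and -1.81 under erastin (3.51-fold lower, SE 0.103, adjusted p = 1.23e-07).

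A second MOB1A probe set, 201299_s_at, read 7.08, 6.63 and 6.99 on siYAP arrays with DMSO, against 8.57, 8.74 and 8.76 on siNT arrays. Under erastin it read 6.65, 7.21 and 7.17 on siYAP arrays, against 8.93, 8.46 and 8.78 on siNT arrays. These groups did not overlap either. The log2 difference was -1.79 in DMSO (3.46-fold lower, SE 0.163, adjusted p = 3.79e-06) and -1.71 under erastin (3.28-fold lower, adjusted p = 5.73e-06). In DMSO, 37 of 22215 probe sets fell by more than 201299_s_at and 42 by more than 214812_s_at. Under erastin, 42 fell by more than 201299_s_at and 33 by more than 214812_s_at.

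The other MOB1A probe sets differed from these in size. Probe set 201297_s_at read 6.75, 6.81 and 6.66 on siYAP arrays with DMSO, against 7.21, 7.16 and 7.05 on siNT arrays. Under erastin it read 6.68, 6.65 and 6.72 on siYAP arrays, against 7.06, 6.85 and 7.48 on siNT arrays. Groups did not overlap, and the difference was -0.40 in DMSO (1.32-fold lower, adjusted p = 0.0262) and -0.45 under erastin (1.37-fold lower, adjusted p = 0.0134). The call in DMSO was lost without the first or second siNT array or without the first or the third siYAP array (adjusted p = 0.0873, 0.0738, 0.0626 and 0.0898). The call under erastin was lost when only the 6 erastin arrays were fitted (adjusted p = 0.0606).

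Probe set 201298_s_at read 8.56, 8.65 and 8.66 on siYAP arrays with DMSO, against 8.77, 8.72 and 8.75 on siNT arrays, a difference of -0.13 (95% interval -0.31 to 0.06, adjusted p = 0.337). Under erastin the difference was -0.05 (95% interval -0.23 to 0.14, adjusted p = 0.765), and the groups overlapped. Its intervals thus end well above the falls of 201299_s_at and 214812_s_at, whose own 95% intervals in DMSO were -2.15 to -1.44 and -2.00 to -1.56. The deposited table does not say which part of the transcript each probe set reads, so how much MOB1A RNA was lost in all cannot be stated as a single value. The sources used here give neither the sequence nor the number of siRNAs. All siYAP arrays carried this siRNA, so loss of YAP and any other effect of the siRNA cannot be told apart, for MOB1A and for every silencing result here.

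**Figure D2:**
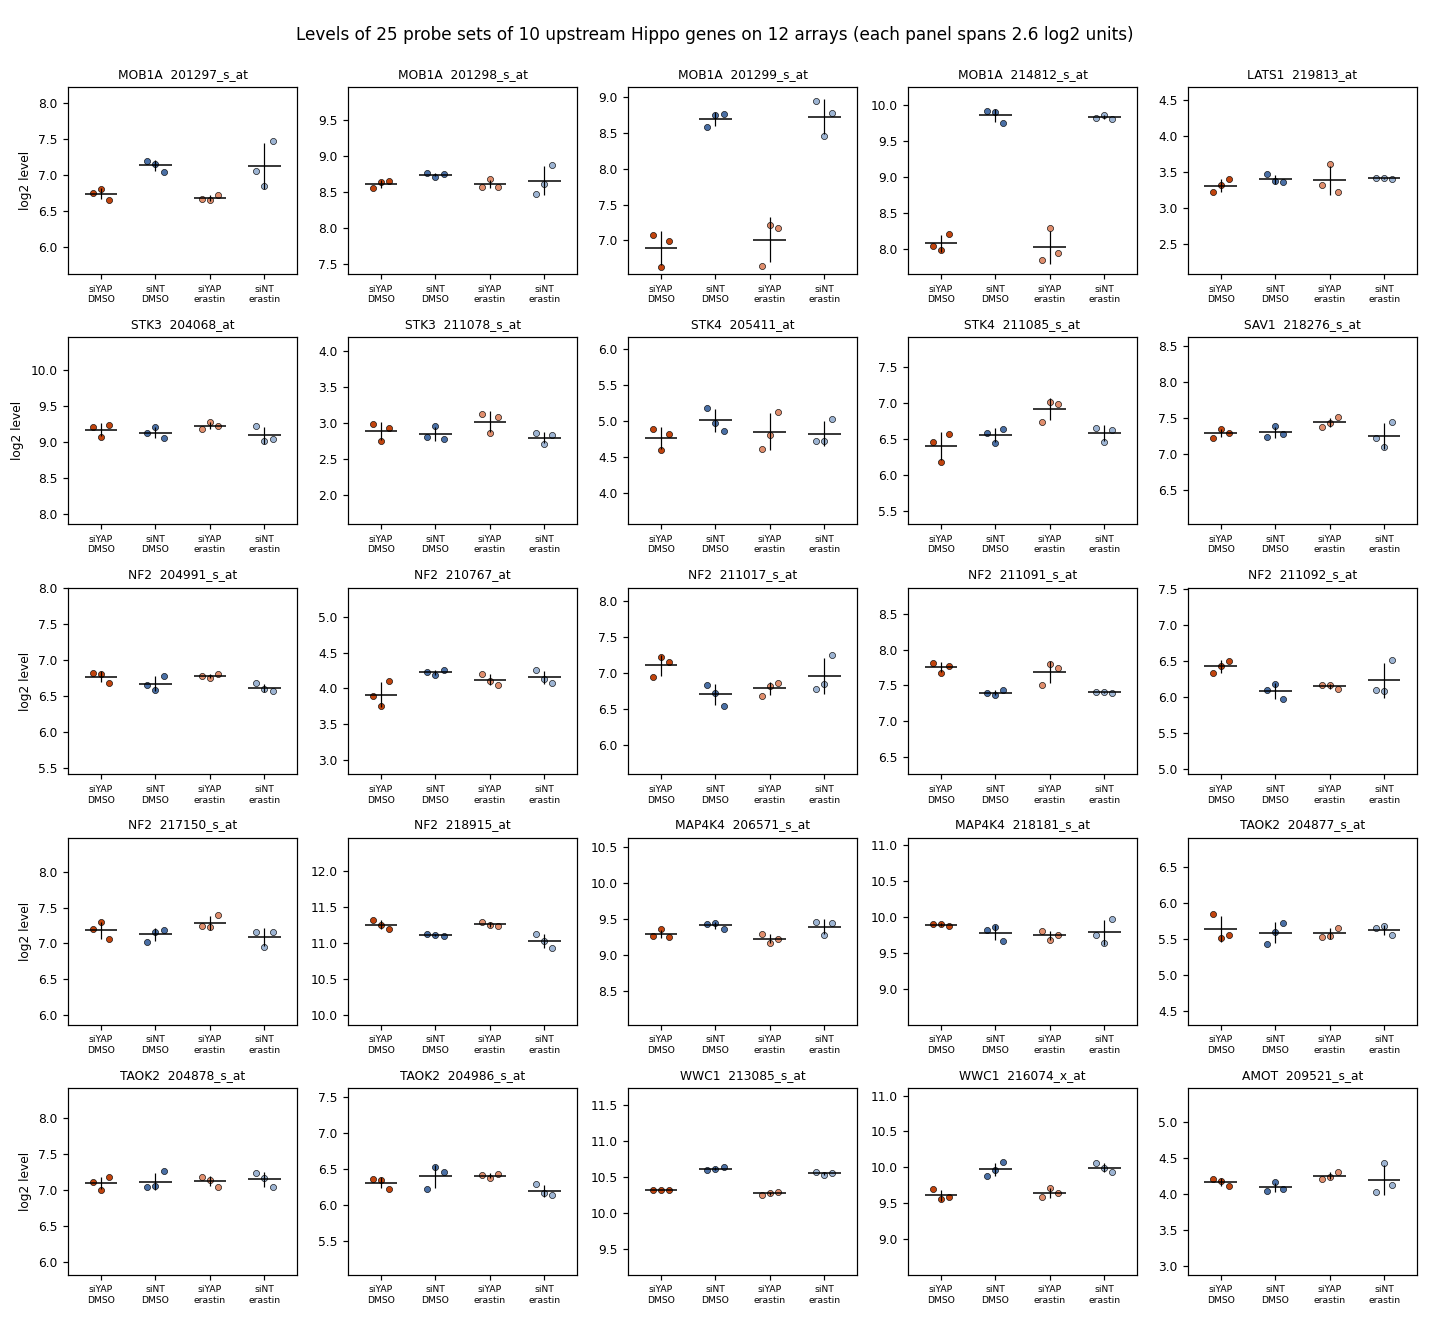
Log2 level of every probe set (y axis, 2.6 units in each panel) on each array (points), with group means (horizontal lines) and SDs (vertical lines, n = 3), siYAP left of siNT within DMSO and within erastin. The siYAP groups differ from siNT by -1.71 to -1.81 for 2 of the 4 MOB1A probe sets and by -0.28 to -0.36 for both WWC1 probe sets.

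The stretch before the start of MOB1A is shown because this gene changed most among the members and YAP acts on promoters and enhancers through TEAD factors. The 250 bases before the most upstream MOB1A start in RefSeq, at chr2:74178880-74179129 on the minus strand of GRCh38.p14, were read 5′ to 3′ for the TEAD core motif GGAATG and its reverse complement CATTCC.
MOB1A: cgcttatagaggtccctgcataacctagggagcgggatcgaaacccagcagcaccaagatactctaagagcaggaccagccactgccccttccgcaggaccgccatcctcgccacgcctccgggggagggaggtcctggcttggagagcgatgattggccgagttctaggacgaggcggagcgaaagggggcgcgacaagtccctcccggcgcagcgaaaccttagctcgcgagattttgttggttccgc
No match was found, so the sequence stands in lower case throughout. Of 27303 windows of the same length and place in the RefSeq table, 12% held a match, and none of the 9 member genes with a window there did. These letters not being in this window says nothing on TEAD binding elsewhere.

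For each MOB1A probe set whose group means spanned at least 1 log2 unit, the genes with the most similar profile over the 12 arrays were named. The measure was the root mean square difference of the centred values. These were not scaled, so genes with a fall of like size come first, and shared regulation was not tested. For 214812_s_at these were CNIH1 (0.0851), PRIM1, which encodes the DNA primase catalytic subunit (0.0993), and HJURP, the chaperone that loads centromeric histone (0.0993). Their changes were -1.82, -1.79 and -1.68 in DMSO and -1.77, -1.62 and -1.74 under erastin. For 201299_s_at the closest were NFATC2IP (0.151), NHLRC2 (0.156) and again CNIH1 (0.159).

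The core kinases and their scaffold differed little between siYAP and siNT. For STK3, the probe set 204068_at read 9.07 to 9.24 on siYAP arrays with DMSO, against 9.06 to 9.21 on siNT arrays, and the difference was 0.04 (95% interval -0.12 to 0.20, adjusted p = 0.755). Under erastin its difference was 0.13 (95% interval -0.02 to 0.29, adjusted p = 0.212). The second STK3 probe set, 211078_s_at, lay between 2.70 and 3.12 on all arrays, near the bottom of the scale, and was not called (0.04 and 0.22, adjusted p = 0.795 and 0.0817). Without the second siYAP array with erastin its difference under erastin was 0.30 (adjusted p = 0.0254).

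SAV1, the scaffold of these kinases, averaged 7.29 ± 0.06 on siYAP arrays and 7.30 ± 0.08 on siNT arrays in DMSO (SD, n = 3 each), a difference of -0.02 (95% interval -0.20 to 0.17). Under erastin it read 7.38, 7.43 and 7.51 on siYAP arrays, against 7.22, 7.09 and 7.45 on siNT arrays. The groups overlapped, and the difference of 0.19 had adjusted p = 0.126. It passed with array weights (0.23, adjusted p = 0.0173) and without the third siNT array (0.28, adjusted p = 0.0108). LATS1, the kinase that phosphorylates YAP, lay between 3.21 and 3.61 on all 12 arrays, on a scale that ran from 2.02 to 14.4 over all probe sets. Its differences were -0.09 in DMSO (adjusted p = 0.551) and -0.03 under erastin (adjusted p = 0.873). At so low a signal, a change of the LATS1 transcript could have been missed.

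STK4 was the core kinase with a called probe set. Probe set 211085_s_at read 6.74, 7.02 and 6.98 on siYAP arrays with erastin, against 6.66, 6.45 and 6.63 on siNT arrays with erastin. All 3 siYAP arrays lay above all 3 siNT arrays, and the rise was 0.33 (1.26-fold higher, SE 0.106, adjusted p = 0.0319). This call was lost without the second siNT array or without the second or the third siYAP array (adjusted p = 0.11, 0.119 and 0.109). In DMSO it read 6.45, 6.18 and 6.56 on siYAP arrays, against 6.58, 6.43 and 6.63 on siNT arrays, where the groups overlapped and the difference was -0.15 (adjusted p = 0.355). The dimmer STK4 probe set, 205411_at, averaged 4.86 over the 12 arrays, among the dimmest 30% of probe sets. It had a difference of -0.24 in DMSO (adjusted p = 0.232) and one of 0.03 under erastin (adjusted p = 0.919).

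NF2 encodes merlin, a membrane-linked tumour suppressor that recruits the LATS kinases. Of its 7 probe sets, 3 rose and 1 fell after silencing in DMSO, and 2 rose under erastin. Probe set 211091_s_at was called in both. It read 7.82, 7.68 and 7.77 on siYAP arrays with DMSO, against 7.40, 7.37 and 7.43 on siNT arrays, a rise of 0.36 (1.28-fold higher, SE 0.0735, adjusted p = 0.00257). Under erastin it read 7.51, 7.80 and 7.75 on siYAP arrays, against 7.40, 7.41 and 7.40 on siNT arrays, a rise of 0.28 (adjusted p = 0.0109). No siYAP array overlapped a siNT array in either case. Without the second or the third siYAP array the call under erastin was lost (adjusted p = 0.0558 and 0.0512).

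Probe set 218915_at, the brightest of NF2, read 11.29, 11.24 and 11.23 on siYAP arrays with erastin, against 11.12, 11.02 and 10.93 on siNT arrays, a rise of 0.23 (1.17-fold higher, adjusted p = 0.0107). In DMSO it read 11.31, 11.25 and 11.20 on siYAP arrays, against 11.13, 11.11 and 11.10 on siNT arrays. The groups did not overlap there, and the difference of 0.14 had adjusted p = 0.109, and adjusted p = 0.0374 with a trended and robust variance model.

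Probe sets 211017_s_at and 211092_s_at were called in DMSO alone. The first rose by 0.40 (6.94, 7.22 and 7.15 on siYAP arrays, against 6.83, 6.73 and 6.54 on siNT arrays, adjusted p = 0.0249). The second rose by 0.34 (6.34, 6.44 and 6.51 on siYAP arrays, against 6.10, 6.19 and 5.98 on siNT arrays, adjusted p = 0.0272). Under erastin their differences were -0.17 and -0.08 (adjusted p = 0.36 and 0.637). Each call in DMSO was lost without the second or the third siYAP array or without the third siNT array. It was also lost without the second siNT array for 211017_s_at and without the first for 211092_s_at. Adjusted p was then 0.055 to 0.102 for the first and 0.0625 to 0.103 for the second.

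The NF2 probe set that fell, 210767_at, lay between 3.75 and 4.26 on all arrays, near the bottom of the scale. It read 3.89, 3.75 and 4.10 on siYAP arrays with DMSO, against 4.23, 4.19 and 4.26 on siNT arrays, a difference of -0.31 (adjusted p = 0.0147) whose call was lost without the second siYAP array (adjusted p = 0.0667). The remaining NF2 probe sets, 204991_s_at and 217150_s_at, differed by 0.10 and 0.06 in DMSO and by 0.17 and 0.19 under erastin (adjusted p = 0.334, 0.696, 0.072 and 0.113). The difference of 204991_s_at under erastin passed without the dimmest 30% of probe sets and without the third siNT array with DMSO (adjusted p = 0.042 and 0.0475). The 7 probe sets therefore gave no single value for NF2, and their differences ran between -0.31 and 0.40 in DMSO and between -0.17 and 0.28 under erastin.

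WWC1 encodes KIBRA, a scaffold that binds merlin and the LATS kinases. Probe set 213085_s_at read 10.32, 10.32 and 10.31 on siYAP arrays with DMSO, against 10.59, 10.62 and 10.64 on siNT arrays. Under erastin it read 10.25, 10.28 and 10.29 on siYAP arrays, against 10.56, 10.52 and 10.56 on siNT arrays. All siYAP arrays lay below all siNT arrays, and the difference was -0.30 in DMSO (1.23-fold lower, adjusted p = 4.60e-04) and -0.28 under erastin (1.21-fold lower, adjusted p = 7.74e-04).

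The other WWC1 probe set, 216074_x_at, fell by 0.36 in DMSO (9.61 ± 0.08 in siYAP and 9.97 ± 0.09 in siNT, SD, n = 3 each, adjusted p = 0.0013). Under erastin it fell by 0.35 (9.64 ± 0.06 in siYAP and 10.00 ± 0.06 in siNT, adjusted p = 0.00143). The ending of its name marks probes that may also bind other transcripts. WWC1 was the member gene for which all probe sets were called in both media, and these calls held under every alternative other than the 2-fold minimum and the zero transformation. AMOT, which binds YAP and holds it at junctions, lay between 4.02 and 4.43 on all arrays and showed differences of 0.08 and 0.06 in DMSO and erastin (adjusted p = 0.607 and 0.679).

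MAP4K4 and TAOK2, the kinases that can act beside STK3 and STK4, were not called. MAP4K4 probe set 206571_s_at averaged 9.29 ± 0.06 on siYAP arrays and 9.41 ± 0.05 on siNT arrays in DMSO, a difference of -0.12 (adjusted p = 0.23). Under erastin it averaged 9.22 ± 0.06 in siYAP and 9.39 ± 0.11 in siNT, a difference of -0.17 (95% interval -0.31 to -0.02, adjusted p = 0.0822). This difference passed under 4 alternatives, including array weights (-0.20, adjusted p = 0.0141) and the fit without the second siNT array (-0.23, adjusted p = 0.0214). The other MAP4K4 probe set, 218181_s_at, differed by 0.11 and -0.04. Of the 3 TAOK2 probe sets, 204986_s_at differed by 0.21 under erastin (6.42, 6.38 and 6.44 on siYAP arrays, against 6.29, 6.17 and 6.14 on siNT arrays). The groups did not overlap, and adjusted p was 0.0658. It passed without the dimmest 30% of probe sets, with only the 6 erastin arrays or without the first siNT array with DMSO (adjusted p = 0.0422, 0.0498 and 0.0285). The 2 others, 204877_s_at and 204878_s_at, differed by no more than 0.05 in size in either medium.

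Erastin blocks the cystine importer system xc- and can start ferroptosis, an iron-dependent cell death. It changed no member gene past the threshold. In siYAP cells 0 of 25 probe sets were called with erastin against DMSO, where 0.171% of all probe sets were. An unadjusted p under 0.05 was found for 4 of the 25, and for 9.91% of all probe sets. In siNT cells 0 of 25 were called, where 0.297% of all probe sets were. There 1 of the 25 had an unadjusted p under 0.05, as did 8.76% of all probe sets. The member differences ran from -0.32 to 0.51 in siYAP cells and from -0.21 to 0.26 in siNT cells. A trended and robust variance model called 1 member probe set in siYAP cells and 0 in siNT cells.

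That probe set was STK4 211085_s_at. It read 6.74, 7.02 and 6.98 on siYAP arrays with erastin, against 6.45, 6.18 and 6.56 on siYAP arrays with DMSO, and the groups did not overlap. The difference was 0.51 (1.43-fold, SE 0.106, adjusted p = 0.123, and adjusted p = 0.036 with the trended and robust model). In siNT cells the difference was 0.03 (95% interval -0.20 to 0.26, adjusted p = 0.973). RNA integrity was read from the ACTB controls, as the log2 level of the 3′ set minus that of the 5′ set. This value was 3.35 to 3.71 in siYAP with erastin and 1.49 to 3.14 in siYAP with DMSO. It was 1.49 to 2.82 in siNT with erastin and 2.40 to 2.97 in siNT with DMSO. For the GAPDH controls the same difference was 0.127 to 0.203 in siYAP with erastin and 0.202 to 0.223 in siYAP with DMSO, so it ran the other way. It was 0.0702 to 0.222 in siNT with erastin and 0.116 to 0.252 in siNT with DMSO. The ACTB values of siYAP with erastin lay above those of all other groups, so they also separate the groups of silencing under erastin. The GAPDH values of siYAP and siNT with erastin overlapped. The part of either control's values in the STK4 result, the other results of silencing under erastin and the difference between the erastin responses was not tested.

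**Figure D3:**
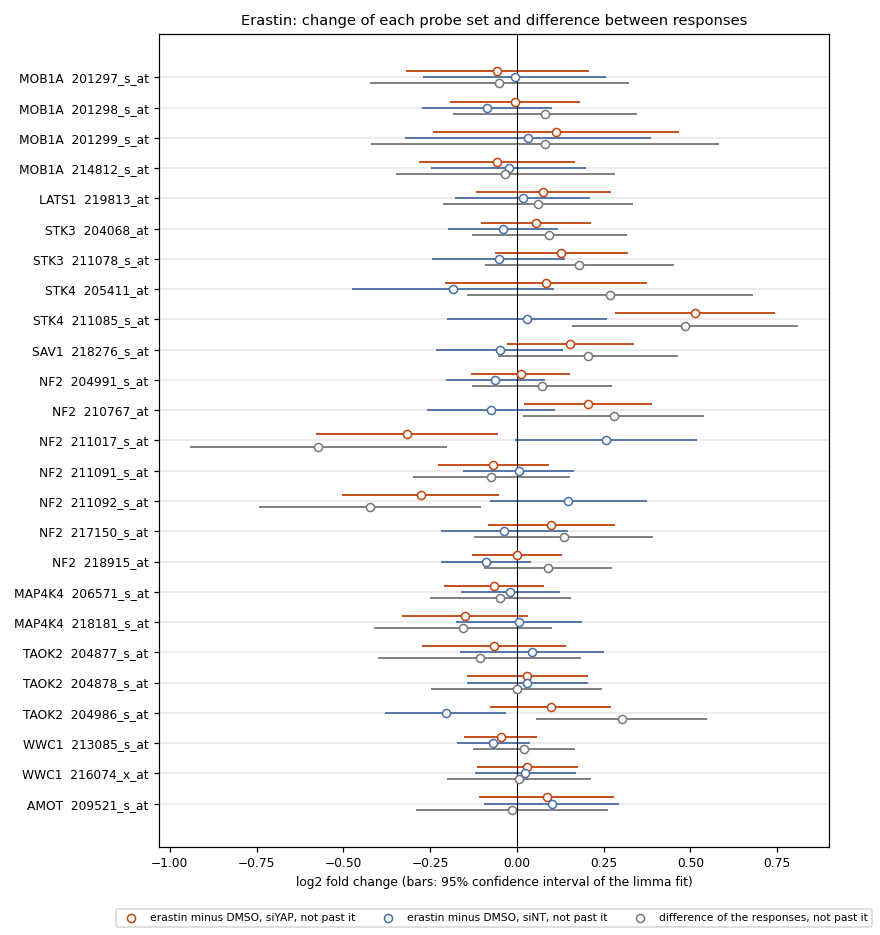
Change of each probe set with erastin (x axis, log2 fold change, erastin minus DMSO) in siYAP and in siNT cells, and the difference between both responses, with 95% confidence intervals of the limma fit. No point passed an adjusted p of 0.05, and STK4 211085_s_at in siYAP cells lies farthest to the right at 0.51.

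The difference between the erastin responses of siYAP and siNT cells was tested as an interaction. None of the 25 probe sets passed in limma, nor did any of all 22215 (0% called), although 5 members and 2005 probe sets in all had an unadjusted p under 0.05. Over all probe sets a trended and robust model called 7 and array weights called 3, of which 0 were members. The member with the largest difference was NF2 211017_s_at (-0.57, 95% interval -0.94 to -0.20, adjusted p = 0.486). With erastin against DMSO it differed by -0.32 in siYAP cells and by 0.26 in siNT cells (adjusted p = 0.435 and 0.584). NF2 211092_s_at had -0.42 (adjusted p = 0.515) and STK4 211085_s_at 0.49 (95% interval 0.16 to 0.81, adjusted p = 0.486). For MOB1A 214812_s_at the difference was -0.03 (95% interval -0.35 to 0.28), and for WWC1 213085_s_at it was 0.02 (95% interval -0.13 to 0.17).

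Other genes of the pathway were read from 4 lists, by the brightest probe set of each gene. Over all 11963 genes, 17% were called higher and 14.6% lower after silencing in DMSO, and 19% and 14% under erastin. Among 14 measured paralogues of the members, 2 rose and 3 fell in DMSO, and 3 rose and 3 fell under erastin. MAP4K5, a kinase related to MAP4K4, fell most (-1.15 in DMSO, adjusted p = 9.75e-05, and also lower under erastin, adjusted p = 3.00e-04), although neither of its 2 other probe sets was called. AMOTL2, which like AMOT binds YAP, fell by 0.51 in DMSO and by 0.54 under erastin. STK38, a kinase of the LATS family that MOB1 proteins also activate, fell by 0.42 and 0.56, and its 2 other probe sets were not called. TNIK, of the same kinase group as MAP4K4, rose by 0.61 and 0.66, and both of its other probe sets were called higher. MINK1, of that group too, rose by 0.40 in DMSO and 0.62 under erastin, where 1 of its 3 other probe sets was called higher. The list median was 0.03 in both media, against 0.02 and 0.01 for all genes.

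Among 22 measured scaffolds and polarity genes, 5 rose and 0 fell in DMSO, and 6 rose and 2 fell under erastin. DLG5, a polarity scaffold, rose by 0.64 in DMSO and 0.71 under erastin, and RDX, which encodes the merlin relative radixin, by 0.59 and 0.55. The other DLG5 probe set was not called in either medium, and the 2 others of RDX were called higher under erastin but not in DMSO. DLG1 rose by 0.41 in DMSO and 0.24 under erastin, and PARD3 by 0.24 and 0.23. In DMSO, 1 of the 4 other DLG1 probe sets and 1 of the 3 others of PARD3 were called higher. KIRREL1 rose by 0.49 under erastin (-0.0011 in DMSO, adjusted p = 0.997), and FAT4, an atypical cadherin, fell by 0.31 under erastin (-0.11 in DMSO, adjusted p = 0.497). The count of 5 was 3 without the first siNT or the first siYAP array with DMSO. The 6 were 2 without the second or the third siYAP array with erastin. The 2 falls under erastin were 0 when only the 6 erastin arrays were fitted and in 9 of the 12 fits that left out 1 array, among them each siYAP array with erastin.

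Among 16 measured inhibitors of the kinases, 5 rose and 2 fell in DMSO, and 2 rose and 2 fell under erastin. SIK1, a salt-inducible kinase, fell by 0.84 and 0.89, and SIK2 by 0.42 and 0.39. STRN3, a subunit of the STRIPAK phosphatase complex that acts on STK3 and STK4, rose by 0.58 and 0.72. The other probe set of SIK2 and that of STRN3 were not called in either medium. NEDD4, a ubiquitin ligase, rose by 0.43 in DMSO, and under erastin its difference was 0.21 (adjusted p = 0.0522). SIK3 rose by 0.42 in DMSO and 0.36 under erastin, where 1 of its 3 other probe sets was called higher. The 5 rises were 3 without the second siYAP array with DMSO. Under erastin the 2 rises were 4 without the third siYAP array, with array weights or without the dimmest 30% of probe sets, and the 2 falls were 4 without the second siNT array.

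Among 18 measured genes of YAP, TAZ and their partners, 1 rose and 4 fell in DMSO, and 3 rose and 4 fell under erastin, YAP1 itself included. YWHAQ, a 14-3-3 protein of the family that retains phosphorylated YAP in the cytoplasm, fell by 1.07 and 1.18, and both of its other probe sets were called lower as well. VGLL4, a competitor of YAP at TEAD factors, rose by 0.80 and 0.70. YWHAE fell by 0.39 in DMSO and by 0.27 under erastin. TEAD1 rose by 0.63 under erastin, and in DMSO its difference was 0.32 (adjusted p = 0.0945). Of the 32 calls picked by the naming rule over the 4 lists, YAP1 included, 23 were of genes with other probe sets, and in 11 of these none of the others was called. The single rise in DMSO was 3 under 4 alternatives, and the 4 falls under erastin were 2 without the third siYAP array. With erastin against DMSO, 0 of the 70 measured pathway genes were called in siYAP or in siNT cells. Both silencing comparisons used different arrays, while the erastin comparisons share theirs with them.

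**Figure D4:**
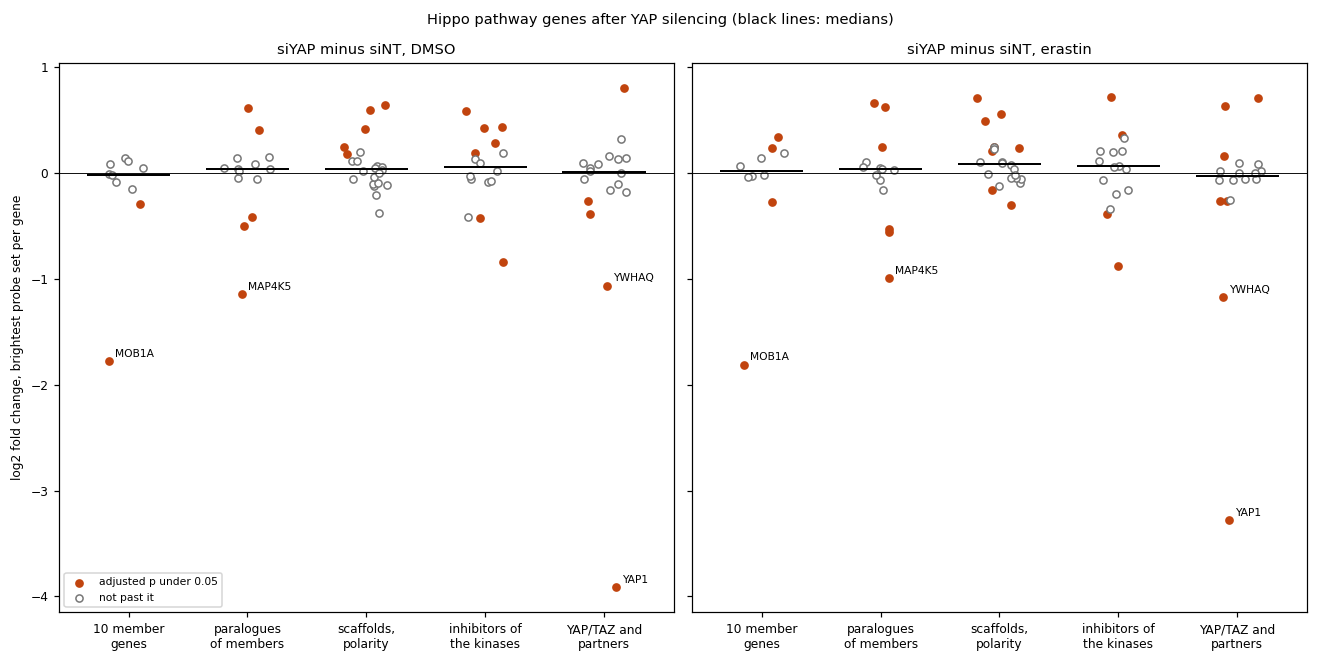
Log2 fold change after YAP silencing (y axis, siYAP minus siNT) of the 10 member genes and of 4 lists of other Hippo genes, by the brightest probe set of each gene, in DMSO (left) and under erastin (right). Filled points passed an adjusted p of 0.05, black lines are list medians, and MOB1A (-1.78 and -1.81) is the member farthest from 0.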

How the data were processed

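Total RNA of 12 RCC4 samples was measured on Affymetrix arrays. The authors deposited log2 levels per probe set. RMA and Affymetrix Expression Console are the tools named, per the submitters' processing notes. The sources used here give no version, setting, scan date or probe position. RMA brings arrays to a common distribution, so a change in total RNA is not seen, and it compresses changes of dim probe sets.

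Of 22277 probe sets, 62 controls were left out. The platform annotation gave 1 symbol to 19065 of the others, several to 1043 and none to 2107, and 19053 symbols matched RefSeq. The 22215 probe sets were fitted with limma 3.58.1 in R 4.3.3 (lmFit, eBayes), with a mean per group over all 12 arrays and 8 residual degrees of freedom. Benjamini-Hochberg adjustment ran over all probe sets within each of 5 comparisons: silencing in DMSO, silencing under erastin, erastin in siYAP, erastin in siNT and the interaction. The fit was also run on simulated data. Their noise was independent and far fewer probe sets changed than silencing called, so that run does not give the error rate here.

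Named were all member probe sets, YAP1, at most 4 called genes with the largest change per pathway list and comparison, and the 3 genes nearest in profile to each member probe set spanning at least 1 log2 unit. The pathway lists were paralogues of the members, other scaffolds and polarity genes, inhibitors of the kinases, and YAP, TAZ and their partners. Of their 92 genes 22, among them LATS2 and MOB1B, were not analysed here because no probe set names them alone. Members and lists were chosen with earlier results of these data known. Alternatives were other scalings, filters, variance models, array weights, minimum folds, a replicate block, the compared arrays alone and leaving out each array.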

Additional observations from a re-analysis of the deposited data

How the results depend on the processing

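Of 17 called member results, 10 kept their call under all alternatives other than the 2-fold minimum and the zero transformation, and 0 reversed. The zero transformation sets siYAP against the siNT mean, as the design text describes, and was used here for erastin against the DMSO mean too. A probe set counted when every tested array differed from that mean by more than 2-fold in the same direction, with no p-value. Of 108 uncalled ones, 7 were called under some alternative. Member probe sets called after silencing numbered 9 in DMSO and 8 under erastin. With the brightest probe set per gene alone they were 2 and 4, with the 2-fold minimum 2 and 2, and with the zero transformation 2 and 2. Leaving out 1 array gave 6 to 9 in DMSO, 6 to 9 under erastin, and 0 to 0 for both erastin comparisons and for the interaction. With a trended and robust variance 1 member was called with erastin in siYAP cells.

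Over all probe sets, silencing called 6079 in DMSO and 6415 under erastin. With the brightest probe set per gene these were 4030 and 4173, with the 2-fold minimum 495 and 495, and with the zero transformation 388 and 341. Leaving out 1 array gave 5080 to 6588 and 5097 to 6471. Erastin called 38 in siYAP cells, which was 88 with the trended and robust variance, 70 with array weights, 10 with the 2-fold minimum and 10 with the zero transformation, and 19 to 49 without 1 array. In siNT cells it called 66, which was 10 with the compared arrays alone, 124 without the dimmest 30%, 170 with the trended and robust variance, 186 with array weights, 5 with the 2-fold minimum and 4 with the zero transformation, and 34 to 50 without 1 array. The interaction called 0, which was 7 with the trended and robust variance, 3 with array weights and 0 to 1 without 1 array. Apart from settings that test fewer probe sets or arrays or ask for a minimum change, the cause was not tested.

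The replicate numbers did not pair the arrays: 3 of 18 same-numbered pairs correlated above 0.1, and 0 of 12 arrays correlated best with their own number. With the replicate block, member calls were 9 and 8 for silencing and 0 for the rest, and all calls were 5704, 6016, 30 for erastin in siYAP cells, 33 for erastin in siNT cells and 0 for the interaction. The values near the bottom of the scale, of LATS1, AMOT, STK3 211078_s_at and NF2 210767_at, limit what their differences can show.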
